A study of Mus musculus with 4 samples.

Results

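Fcrl5 Sox5 B cells are kidney B cells whose barcodes carry RNA of Fcrl5, an Fc receptor-like protein of the B-cell surface, or of Sox5, a transcription factor. They were picked by raw counts of unique molecular identifiers (UMIs, 1 per captured RNA molecule). A barcode needed at least 500 UMIs, at least 200 genes and at most 50% mitochondrial UMIs. It then needed Cd79a and Cd79b at 3 or more in sum, Ms4a1 at 1 or more and Fcrl5 and Sox5 at 2 or more in sum. It could hold at most 1 UMI of Cd3d, Cd3e and Cd3g and at most 2 of C1qa, C1qb and C1qc. The gate found 1025 cells among 1692 gated B cells and 31041 kept cells, from 37041 barcodes. The comparison cells, called other B cells here, are the 526 that passed the same B-cell gate with 0 UMIs of Fcrl5 and Sox5. The 141 gated B cells with exactly 1 UMI belong to neither class.

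The cells come from live-sorted, enzymatically dissociated whole kidneys of mice whose mitochondrial DNA carried a base change in TrnE, which encodes the glutamate transfer RNA, and of wild-type C57BL/6J mice. Mutant library 1 had a mutation load of 79% and mutant library 2 one of 76%, per the labels, and 2 wild-type libraries stand against them. Mutation load is the share of mitochondrial DNA copies that carry the mutation. Age, sex, the tissue in which the load was measured and the strain background of the mutants are not known here. Mutant libraries were processed with Cell Ranger 7.0.0 and wild-type libraries with 7.1.0, per the file headers, so software version and genotype cannot be told apart. The counts hold no check of the genotype, and wild-type library 1 was deposited under a name like that of mutant library 2, while the name of mutant library 1 carries a number other than its labelled load. Nothing in the labels says whether libraries of 1 group were prepared on separate days, so p-values measure the spread between these libraries only.

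B cells sense antigen with a surface immunoglobulin made of a heavy and a light chain, each with its own variable (V) segment, and switch the constant segment after activation. Resting follicular B cells carry IgM with IgD and the IgE receptor CD23 (Fcer2a). In mice, Fcrl5 is found on marginal zone and B-1 cells, and T-bet (Tbx21), CD11b (Itgam) and Zeb2 mark age-associated B cells, a memory-like population that accumulates in old and autoimmune mice. In humans, FCRL5 and SOX5 are raised in atypical memory B cells.

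Wild-type library 2 stood apart. It held 828 of the 1025 cells (80.8%), against 21 in mutant library 1, 129 in mutant library 2 and 47 in wild-type library 1. The cells had medians of 6012, 9255, 8768 and 11080 UMIs in mutant 1, mutant 2, wild type 1 and wild type 2, and the other B cells 3800, 5504, 4397 and 15948. Of the other B cells of wild-type library 2, 50 of 101 held 10 or more UMIs of Jchain, which joins secreted IgM and IgA, against 34 of its 828 Fcrl5 Sox5 B cells. In the other libraries such Jchain-rich cells numbered 0, 3 and 2 among the Fcrl5 Sox5 B cells and 9, 1 and 6 among the other B cells. No barcode of a Fcrl5 Sox5 B cell was shared between libraries, and each pair of libraries shared 13 to 20 barcodes among all kept cells. Scrublet, a doublet caller, called 2, 1, 0 and 44 of the cells.

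The 2 genes of the gate and the leading antibody V genes of these cells lie at known places on mm10. Fcrl5 (ENSMUSG00000048031) lies on the plus strand at chr3:87435773-87500678 and Sox5 (ENSMUSG00000041540) on the minus strand at chr6:143828425-144781977. Heavy chain V calls turned on Ighv1-55 (ENSMUSG00000095589, chr12:115208095-115208591) in wild-type library 2 and on Ighv6-3 (ENSMUSG00000076677, chr12:114391712-114392169) in mutant library 2, both on the minus strand. V segments are near copies of each other, so the calls depend on the bases in which they differ. Below are 120 bases of the coding exon of each gene beside a closest relative among 112 heavy chain V genes compared, read on the coding strand from GENCODE M21 (mm10), with capitals where the 2 of a pair differ. Each stretch is the one with the most differences. Ighv1-55 (chr12:115208220-115208339) and Ighv1-53 (chr12:115158528-115158647) differ at 10 of the 120 bases, and over 290 bases they are 94.83% identical, as are Ighv1-55 and Ighv1-64. Ighv6-3 (chr12:114391830-114391949) and Ighv6-6 (chr12:114434907-114435026) differ at 15, and over 290 bases they are 92.41% identical.
Ighv1-55: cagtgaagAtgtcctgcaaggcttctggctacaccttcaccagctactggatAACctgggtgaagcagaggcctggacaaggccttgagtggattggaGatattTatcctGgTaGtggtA
Ighv1-53: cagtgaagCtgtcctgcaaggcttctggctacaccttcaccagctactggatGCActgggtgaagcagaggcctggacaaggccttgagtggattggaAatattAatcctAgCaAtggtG
Ighv6-3: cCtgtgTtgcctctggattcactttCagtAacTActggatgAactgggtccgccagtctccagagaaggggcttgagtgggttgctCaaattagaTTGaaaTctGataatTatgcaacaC
Ighv6-6: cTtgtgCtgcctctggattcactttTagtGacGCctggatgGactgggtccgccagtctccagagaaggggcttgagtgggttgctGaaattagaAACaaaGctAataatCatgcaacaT

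Fcrl5 Sox5 B cells made up 12.4% of gated B cells in mutant library 1 (21 of 169, 95% exact Clopper-Pearson interval 7.86 to 18.4%) and 41.7% in mutant library 2 (129 of 309, 36.2 to 47.5%). They made up 21.6% in wild-type library 1 (47 of 218, 16.3 to 27.6%) and 83.1% in wild-type library 2 (828 of 996, 80.7 to 85.4%). The libraries of each genotype thus lay further apart than the groups, which overlapped. The mean was 27.1 ± 20.7% in mutants and 52.3 ± 43.5% in wild types (SD, n = 2 each), with a two-sided exact permutation p of 0.667. The smallest p that 2 against 2 libraries allow is 0.333. Without wild-type library 2 the mutant mean was 5.53 percentage points above wild-type library 1, so the direction rested on that library. Intervals here and below cover counting error only.

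Of all kept cells they made up 0.215% and 1.42% in mutant libraries 1 and 2, against 0.815% and 12.9% in wild-type libraries 1 and 2. The mean was 0.818 ± 0.854% in mutants and 6.85 ± 8.53% in wild types (exact permutation p = 0.667, two-sided, n = 2 each). Without wild-type library 2 the difference was 0.0036 percentage points. The B-cell gate itself held 1.73% and 3.41% of kept mutant cells, against 3.78% and 15.5% of kept wild-type cells. The live sort and the dissociation can set such shares, and their part was not tested.

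**Figure D1:**
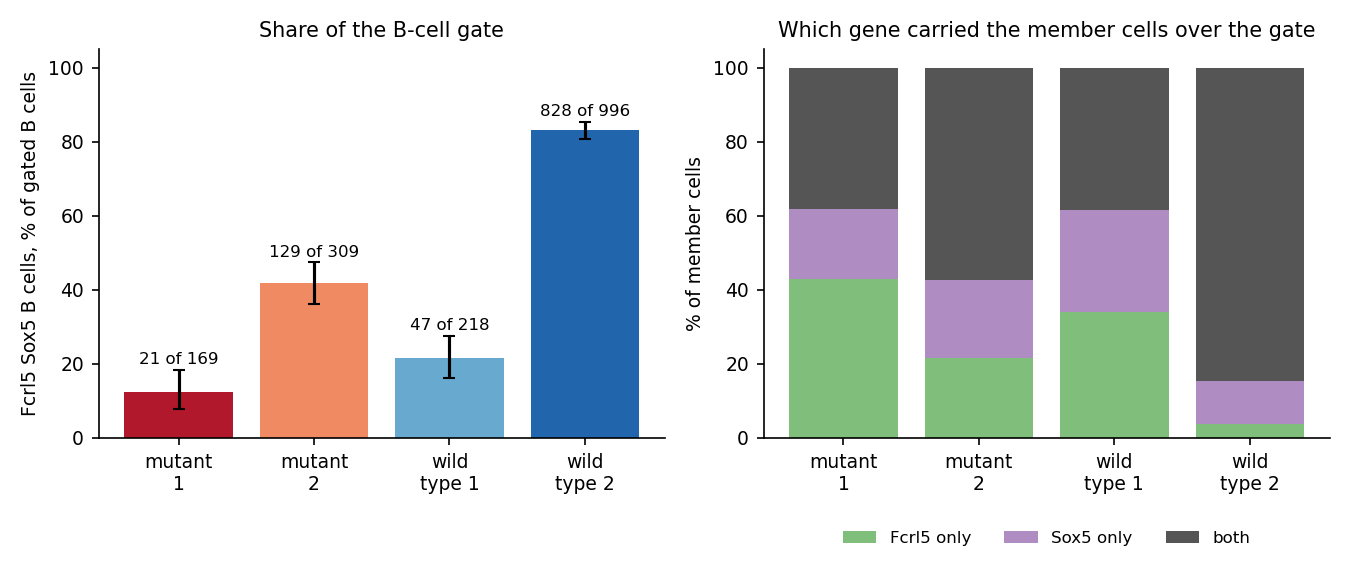
Left, share of gated B cells that are Fcrl5 Sox5 B cells in each library (bars, %), with exact 95% intervals and cell numbers: 12.4% and 41.7% in mutant libraries, 21.6% and 83.1% in wild-type libraries. Right, share of these cells (%) that carried UMIs of Fcrl5 only, of Sox5 only or of both, which was 38.1% for both genes in mutant library 1 and 84.7% in wild-type library 2.

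Because a deeper cell reaches 2 UMIs more easily, each gated B cell was also thinned to 1500 UMIs. A UMI of Fcrl5 or Sox5 then remained in 11.3%, 31.1%, 15.1% and 69.0% of gated B cells of mutant 1, mutant 2, wild type 1 and wild type 2, in the same order of libraries as without thinning. T cells (Cd3d, Cd3e and Cd3g at 3 or more, no Cd79a or Cd79b) served as a guide to the level that free RNA gives. T cells that caught free RNA of Cd79a or Cd79b were left out by this rule. The T-cell shares here and below can thus lie under the level of free B-cell RNA. At full depth, 5 of 1400, 23 of 2887, 0 of 736 and 25 of 772 T cells held a UMI of either gene, which was 3.24% at most, in wild-type library 2. The 0 of 736 T cells in wild-type library 1 allow a share of up to 0.408%, taking 3 counts as the limit for a count of 0. T cells had medians of 3768.5, 5289, 4792.5 and 7472 UMIs. In gated B cells the unthinned share with a UMI of either gene was 21.3%, 55.0%, 29.8% and 89.9%.

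The gate's own genes are described without a test. Both genes were found in 8 of 21, 74 of 129, 18 of 47 and 701 of 828 cells, Fcrl5 alone in 9, 28, 16 and 31, and Sox5 alone in 4, 27, 13 and 96 (mutant 1, mutant 2, wild type 1, wild type 2). The median cell held 2, 2, 2 and 4 UMIs of Fcrl5 and 2, 3, 2 and 10.5 of Sox5. Just inside the gate, 8, 24, 17 and 40 cells held exactly 2 UMIs of the pair, and just outside it 15, 41, 18 and 67 held exactly 1. The other markers of the label were present. Bank1, a scaffold of B-cell receptor signalling, was at 857, 1725, 875 and 2298 plain CPM (UMIs of the gene per 1e6 UMIs of the summed class), and in other B cells at 667, 1622, 1777 and 612 plain CPM. All 10 further B-cell markers were found in each library, though 1 of them, Cd79b, is a gene of the gate. Pax5, the B-lineage factor and not a gate gene, was at 193, 268, 249 and 398 plain CPM.

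Markers of other cell types were present. The 8 T-cell markers summed to 16.1, 52.2, 20.8 and 28.3 plain CPM, with Cd3d, Trac, Lck, Cd247 and Bcl11b at 0 in mutant library 1 and 7 of the 8 at 0 in wild-type library 1. The 11 macrophage and monocyte markers summed to 1714, 189, 77.9 and 265 plain CPM, with Fcgr1 at 0 in wild-type library 1. In mutant library 1, 1414 of the 1714 came from Lyz2, the macrophage lysozyme, over 21 cells. The 8 proximal tubule markers summed to 3647, 387, 171 and 2134 plain CPM, with Slc22a6 at 0 in wild-type library 1. The 6 endothelial markers summed to 594, 144, 140 and 216. In the other B cells these sums were 225, 246, 186 and 163 for macrophages, 1615, 328, 2329 and 1473 for the proximal tubule and 222, 655, 205 and 82.6 for the endothelium. Mutant library 1 was thus above its other B cells in all 3 lists. In T cells the sums were 2064, 1331, 1175 and 187 for macrophages, 3235, 951, 2121 and 2904 for the proximal tubule and 189, 232, 229 and 119 for the endothelium. The gate limited Cd3d, Cd3e, Cd3g, C1qa, C1qb and C1qc in both B-cell classes. It thus partly set the T-cell and macrophage sums of those classes, while the T cells had no limit on C1qa, C1qb and C1qc. The part of RNA of other cell types in the results below was not tested.

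The cells were next compared with the other B cells of the same library, with UMIs summed per library and class and the library as a block. The 11 gate genes were left out of the test. In Fcrl5 Sox5 B cells, 63 genes were higher and 31 lower among 7841 tested, which is 1.20% of all genes tested (edgeR quasi-likelihood test, Benjamini-Hochberg adjusted p under 0.05). Among the higher genes were T-bet, CD80, CD73, CD11b and the B-1 regulator Bhlhe41, and among the lower ones CD23, CD21 and IgD. Values below are CPM scaled by TMM, edgeR's correction for library composition, and fold changes are Fcrl5 Sox5 B cells over other B cells. A test of genes across 4 libraries rests on each of them: leaving out mutant library 1 left 17 calls, mutant library 2 none, wild-type library 1 46 and wild-type library 2 130. Without mutant library 2 all 91 called genes still tested kept their direction, each with an unadjusted p under 0.05, and 655 genes in all had one. DESeq2 called 130 higher and 74 lower, all 94 of the edgeR calls among them. Scaling by library totals gave 108 higher and 24 lower and moved the median log2 fold change of all genes to 0.21, against -0.02 with TMM.

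Zbtb32 (ENSMUSG00000006310, chr7:30589681-30598909), a repressor that restrains memory B-cell recall in mice, had the largest rise of the genes that met the naming rule. It was at 50.2, 83.1, 59.8 and 40.0 CPM in Fcrl5 Sox5 B cells of mutant 1, mutant 2, wild type 1 and wild type 2, against 3.32, 6.89, 12.9 and 2.08 CPM in other B cells. The classes did not overlap, and edgeR gave a log2 fold change of 3.29 ± 0.37 (SE) with an adjusted p of 0.0102. In mutant library 1 these values rest on 10 and 2 UMIs. Cd80 (ENSMUSG00000075122, chr16:38455561-38496335), a costimulatory ligand found on memory B cells, was at 25.1, 105, 80.2 and 183 CPM, against 14.9, 10.8, 0.99 and 20.1 CPM in other B cells. It was higher in all 4 libraries, least so in mutant library 1, and edgeR gave a log2 fold change of 3.20 ± 0.52 (SE) with an adjusted p of 0.0323. The Cd80 value of other B cells in wild-type library 1 rests on 1 UMI. Tbx21 (ENSMUSG00000001444, chr11:97098071-97115331), which encodes T-bet, was at 50.2, 58.2, 23.9 and 86.1 CPM, against 6.64, 10.8, 3.96 and 4.16 CPM. Every library was higher in Fcrl5 Sox5 B cells, and edgeR gave a log2 fold change of 3.13 ± 0.38 (SE) with an adjusted p of 0.0104. The Tbx21 values of other B cells rest on 4, 11, 4 and 6 UMIs.

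Bhlhe41 (ENSMUSG00000030256, chr6:145858243-145865558), a factor needed for B-1a cells in mice, was at 156, 126, 106 and 112 CPM, against 33.2, 7.87, 12.9 and 44.4 CPM in other B cells. Every one of these values lay above every value of the other B cells (log2 fold change 2.48 ± 0.40 SE, edgeR adjusted p = 0.0313). Nt5e (ENSMUSG00000032420, chr9:88327197-88372092), the ectoenzyme CD73 that makes adenosine, was at 35.1, 78.2, 29.0 and 134 CPM, against 4.98, 10.8, 11.9 and 20.1 CPM. The classes did not overlap (log2 fold change 2.45 ± 0.32 SE, edgeR adjusted p = 0.014). In mutant library 1 the Nt5e values rest on 7 and 3 UMIs. The other large rises were Adgre1 (log2 fold change 3.06), Zc3h12c (3.01), Chn2 (2.87), Phactr2 (2.71), Ercc6l2 (2.57), Nrp2 (2.53) and Rgs1 (2.41). Zc3h12c is an RNase of the Regnase family, Nrp2 a semaphorin receptor and Rgs1 a brake on chemokine receptor signalling. Adgre1, best known as the macrophage antigen F4/80, was at 45.2, 56.1, 15.4 and 134 CPM, against 6.64, 9.84, 3.96 and 7.63 CPM. It was highest in wild-type library 2. The 11 macrophage and monocyte markers, Adgre1 among them, summed to 1714, 189, 77.9 and 265 plain CPM in Fcrl5 Sox5 B cells. In wild-type library 2 Adgre1 itself made up most of that sum, so there the sum is no separate measure of macrophage RNA. The part of macrophage RNA in this result was not tested.

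Fcer2a (ENSMUSG00000005540, chr8:3681737-3694175), the low-affinity IgE receptor CD23, fell furthest. It was at 0, 27.7, 29.0 and 2.04 CPM in Fcrl5 Sox5 B cells of mutant 1, mutant 2, wild type 1 and wild type 2, against 296, 288, 285 and 50.6 CPM in other B cells. The classes did not overlap, and edgeR gave a log2 fold change of -3.98 ± 0.42 (SE) with an adjusted p of 0.00998. Cr2 (ENSMUSG00000026616, chr1:195136811-195176716), the complement receptor CD21, was at 5.02, 38.8, 25.6 and 6.32 CPM, against 76.4, 105, 89.1 and 34.0 CPM (log2 fold change -2.04 ± 0.31 SE, edgeR adjusted p = 0.0239). It was lower in each library, though the value of mutant library 2 lay above that of the other B cells of wild-type library 2. The other large falls were Satb1 (log2 fold change -2.80), a chromatin organiser, Rapgef4 (-2.78), a cAMP-activated exchange factor, and Neurl3 (-2.55). Vpreb3 (-2.50), Zfp608 (-2.38), Cd55 (-2.30), Pxdc1 (-2.23), Rgcc (-2.22) and Cpm (-1.91) followed. In wild-type library 2 the other B cells were lower than in the other libraries for Fcer2a, Cr2 and Cd55. There, 50 of the 101 other B cells were rich in Jchain. The 8 plasma cell markers summed to 17138 plain CPM in these other B cells, and to 18069 in those of mutant library 1. The comparison was also run with Jchain-rich cells of both classes left out, an alternative chosen after seeing the data. Of the 94 called genes, 90 were tested in that run, all 90 in the same direction, and 88 were called. Values of single genes without these cells are not given here.

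**Figure D2:**
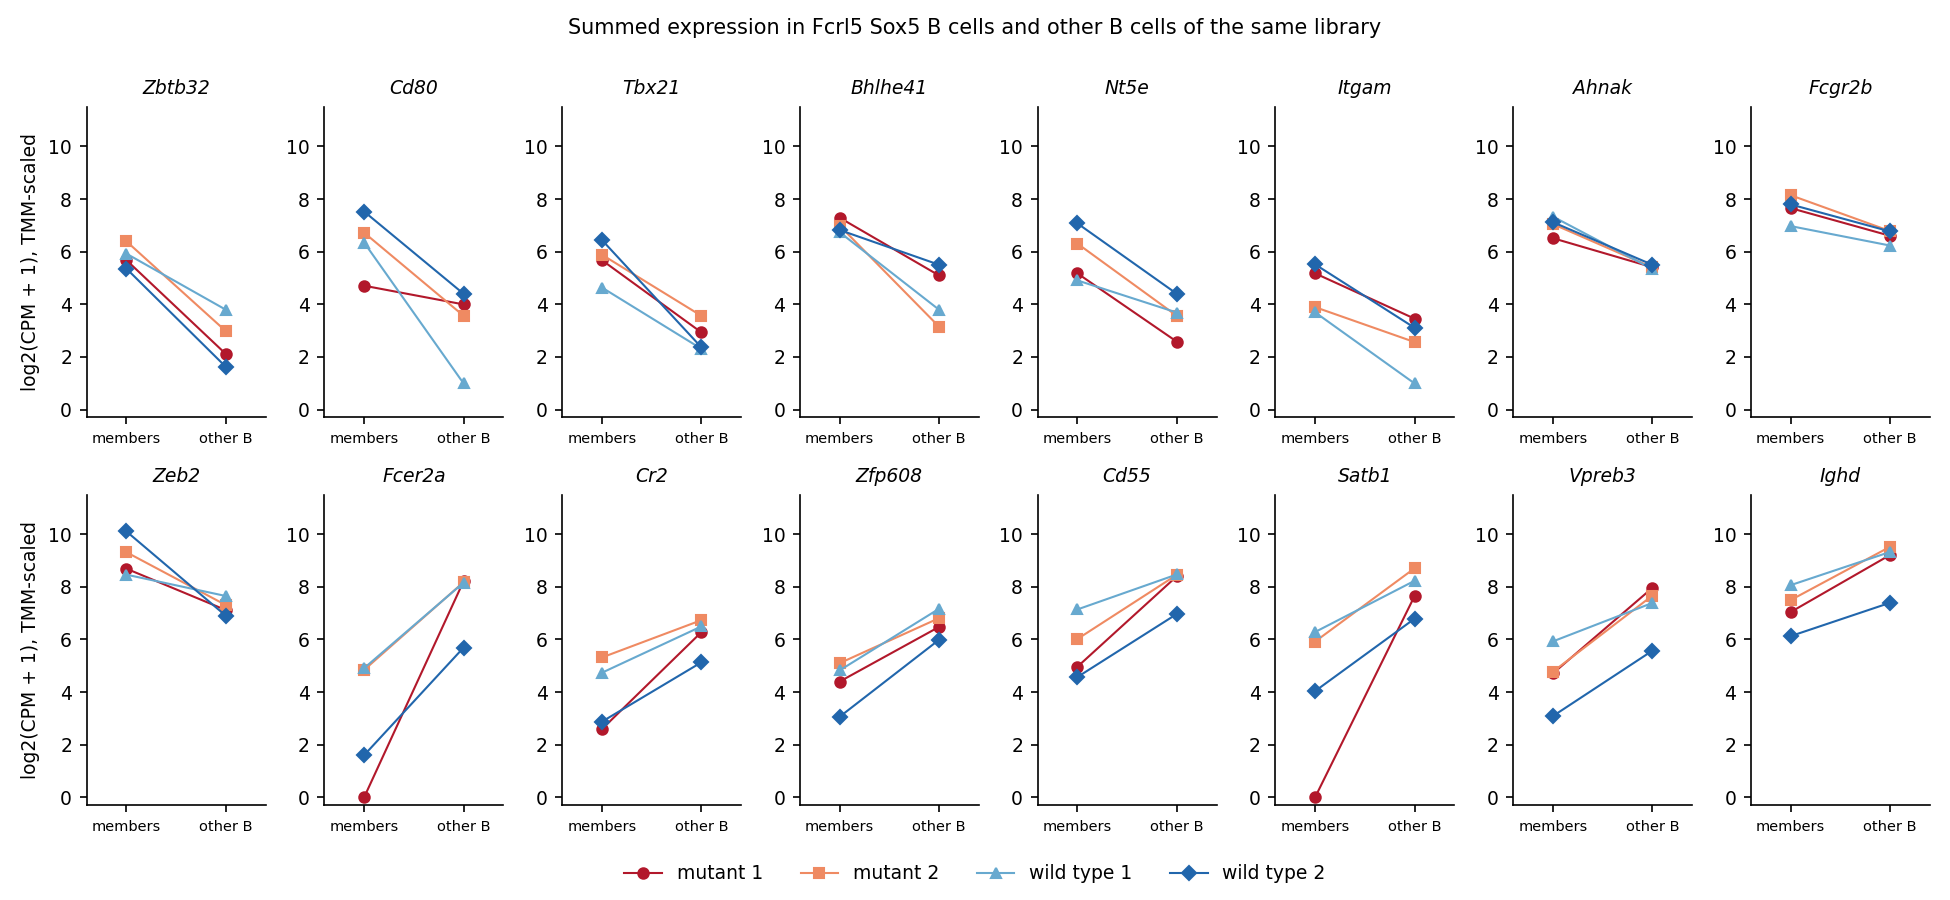
Summed expression of 16 genes, as log2(CPM + 1) scaled by TMM, in Fcrl5 Sox5 B cells (left of each panel, "members") and in other B cells (right), with 1 line per library. The 8 genes of the upper row and Zeb2 are higher in Fcrl5 Sox5 B cells in each library, and the 7 genes from Fcer2a to Ighd are lower.

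Genes linked with age-associated and atypical memory B cells were mostly higher. Of 24 on the list 21 were tested, and 7 rose and none fell: Ahnak, Cd80, Fas, Itgam, Nt5e, Tbx21 and Zbtb32. Over all genes tested, 0.803% were called higher. The median log2 fold change of the 21 was 1.58, against -0.02 over all genes, and 17 of the 21 were higher in all 4 libraries, as were 10.5% of all genes. Itgam, the integrin chain CD11b, was at 35.1, 13.8, 11.95 and 44.8 CPM, against 9.96, 4.92, 0.99 and 7.63 CPM. The Itgam values rest on 7, 20, 7 and 616 UMIs, against 6, 5, 1 and 11. Itgax, also on the list, was found without thinning in 0 of 21, 8 of 129, 1 of 47 and 154 of 828 Fcrl5 Sox5 B cells. In other B cells it was found in 3 of 133, 6 of 139, 2 of 153 and 0 of 101, so it was not higher in mutant library 1. Ahnak, a large scaffold protein, was at 90.4, 132, 160 and 138 CPM, against 41.5, 41.3, 39.6 and 44.4 CPM, with little spread among the other B cells. Fas, the death receptor, had a log2 fold change of 1.72 (SE 0.25). Zeb2, a transcription factor that age-associated B cells need in mice, missed the threshold in edgeR (log2 fold change 1.91, SE 0.37, adjusted p = 0.0548). It was at 412, 636, 352 and 1100 CPM in Fcrl5 Sox5 B cells, against 138, 157, 200 and 119 CPM in other B cells, without overlap, and DESeq2 called it.

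Genes linked with B-1 cells overlapped with that list. Of 20, 15 were tested, and 7 rose and none fell: Anxa2, Bhlhe41, Itgam, Plscr1, Ptpn22, Rgs1 and Zbtb32. The median log2 fold change was 1.33, and 10 of the 15 were higher in all 4 libraries. Over all genes, 0.803% were called higher and 10.5% were higher in all 4 libraries. Plscr1, a phospholipid scramblase, was at 95.4, 109, 73.4 and 117 CPM, against 24.9, 33.4, 15.8 and 31.9 CPM. Ptpn22, a phosphatase that dampens antigen receptor signals, had a log2 fold change of 1.34 (SE 0.17). Cd9, a tetraspanin of B-1 and marginal zone cells, missed the threshold (log2 fold change 1.29, adjusted p = 0.0664 by edgeR). Cd5, which defines B-1a cells, was not among the tested genes. With each cell thinned to 1500 UMIs, it was found in 0 of 21, 1 of 129, 0 of 47 and 3 of 827 Fcrl5 Sox5 B cells, against 21.0 to 29.4% of T cells.

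Genes of resting follicular B cells were mostly lower. Of 18, all tested, none rose and 6 fell, among them Cd55, Fcer2a, Ighd, Satb1 and Vpreb3. Over all genes tested, 0.395% were called lower. The median log2 fold change was -0.87, and 9 of the 18 were lower in all 4 libraries, as were 9.03% of all genes. Ighd, the IgD constant gene, was at 131, 179, 266 and 68.8 CPM, against 591, 734, 640 and 167 CPM (log2 fold change -1.67 ± 0.23 SE, edgeR adjusted p = 0.0157). Foxp1 (log2 fold change -0.95, adjusted p = 0.0565 by edgeR), Bach2 (-0.91) and Ets1 (-0.96), factors that hold B cells at rest, did not pass. The 3 lists were counted again with Jchain-rich cells left out, which gave 13 of 20 higher for the age-associated list, 10 of 14 for the B-1 list and 10 of 18 lower for the follicular list. Calls over all genes rose as well, to 2.46% higher and 1.79% lower. Without wild-type library 2 as well, the counts were 11 of 20, 11 of 14 and 10 of 18, against 1.83% higher and 1.17% lower over all genes.

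Receptors of several families were among the calls, each list with 1 to 3 calls, where 0.803% of all genes were called higher and 0.395% lower. Of 12 inhibitory receptors tested, Fcgr2b, the inhibitory IgG receptor of B cells, and Lilrb4a rose and none fell. Fcgr2b was at 201, 282, 125 and 221 CPM, against 96.3, 109, 74.2 and 108 CPM, a log2 fold change of 1.06 (SE 0.19). It was the single call among 22 genes of B-cell receptor signalling. Of 17 receptors of migration, the chemokine receptor Ccr1 and the integrin chain Itgb1 rose and 1 fell. Itgb1 was at 186, 278, 126 and 360 CPM, against 41.5, 51.2, 35.6 and 72.8 CPM. Of 9 marginal zone genes, the exonuclease Pld4 rose (log2 fold change 1.76, SE 0.19) and Cr2 fell. No call was made among 18 B-cell transcription factors, 14 genes of antibody-secreting cells, 10 of the cell cycle, 17 immediate early genes and 16 interferon-response genes tested in edgeR. At an unadjusted p under 0.05 these lists held 10, 2, 0, 7 and 2 genes, against 10.9% of all genes tested. The 8 plasma cell markers summed to 150, 1543, 8964 and 2160 plain CPM in Fcrl5 Sox5 B cells, against 18069, 230, 7245 and 17138 in other B cells. Apart from the runs without Jchain-rich cells, the part of such RNA in these contrasts was not tested.

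Shares of cells with a UMI were compared at matched depth. With each cell thinned to 1500 UMIs, Fcer2a was found in 0%, 3.10%, 6.38% and 0.484% of Fcrl5 Sox5 B cells, against 34.1%, 33.1%, 37.9% and 17.0% of other B cells. In T cells the share was at most 0.0696%. Zeb2 was found in 42.9%, 52.7%, 29.8% and 78.5%, against 9.85%, 16.6%, 20.9% and 18.0% of other B cells. Bhlhe41 was found in 23.8%, 9.30%, 25.5% and 19.0%, against 1.52%, 0.719%, 1.31% and 5.00%. Zbtb32 was found in 0%, 15.5%, 8.51% and 6.77%, against 0.758%, 0.719%, 1.31% and 0%, so it was not higher in mutant library 1 at this depth. Unthinned, it was found there in 6 of 21 Fcrl5 Sox5 B cells, against 2 of 133 other B cells. Thinning left out 1 cell in each of mutant library 1 (other B), wild-type library 2 (Fcrl5 Sox5) and wild-type library 2 (other B), and the medians before it are those given above.

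The cells were not uniform in these genes. In mutant 2, wild type 1 and wild type 2 the subset with Fcrl5 alone held more Fcer2a and Cr2 than either other subset. In Sox5-only cells of these libraries Fcer2a was at 34.8, 0 and 3.65 plain CPM and Cr2 at 17.4, 7.96 and 9.50. In plain CPM, Fcer2a was at 82.5, 67.9 and 41.8 in Fcrl5-only cells of mutant 2, wild type 1 and wild type 2, against 7.49, 8.66 and 0.940 in cells with both genes. Cr2, of the marginal zone list, was at 134, 58.9 and 62.7 in Fcrl5-only cells, against 15.0, 4.33 and 5.54 in cells with both. In other B cells Cr2 was at 112, 93.8 and 27.9, below the Fcrl5-only cells in mutant 2 and wild type 2. The Fcrl5-only values rest on 28, 16 and 31 cells. In mutant library 1 the 9 such cells held 0 UMIs of Fcer2a and 1 of Cr2, and its cells with both held 0 of each. The difference was not tested. In B cells with exactly 1 UMI of the pair, Fcer2a was at 103, 152, 43.2 and 30.2 plain CPM, between Fcrl5 Sox5 B cells (0, 29.0, 29.4 and 2.48) and other B cells (231, 308, 300 and 41.6) in every library. Zeb2 in these 1-UMI cells was at 334, 162, 173 and 205 plain CPM, between the classes in mutant 1 and wild type 2 and below both in mutant 2 and wild type 1.

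IgM was the leading heavy chain class. In cells with at least 2 UMIs of one constant gene, Ighm led in 20 of 21, 114 of 129, 36 of 47 and 821 of 828 Fcrl5 Sox5 B cells (mutant 1, mutant 2, wild type 1, wild type 2), and in 113 of 132, 128 of 139, 121 of 153 and 97 of 101 other B cells. Ighd led in 0, 0, 2 and 0 Fcrl5 Sox5 B cells, against 18, 8, 21 and 2 other B cells. Of the switched classes, Ighg2b led in 9 cells of mutant library 2 and Ighg3 in 5 of 47 cells of wild-type library 1 and in 5 of 828 of wild-type library 2. Igha led in 1, 3, 2 and 0. The share of cells led by IgM was 95.2% (76.2 to 99.9%) and 88.4% (81.5 to 93.3%) in mutant libraries 1 and 2, against 76.6% (62.0 to 87.7%) and 99.2% (98.3 to 99.7%) in wild-type libraries 1 and 2. Of T cells, 243 of 1400, 760 of 2887, 142 of 736 and 626 of 772 also held 2 or more UMIs of one constant gene, nearly always Ighm. In plain CPM, Ighm was at 3171, 17844, 26934 and 14762 in Fcrl5 Sox5 B cells, against 155, 199, 142 and 547 in T cells. Without Jchain-rich cells, of which mutant library 1 had none in this class, Ighm was at 3171, 6008, 2335 and 5175 plain CPM in Fcrl5 Sox5 B cells. Constant genes of the IgG classes are close copies, so their separation is uncertain.

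In mutant library 2 and in wild-type library 2, most assigned Fcrl5 Sox5 B cells carried the same heavy chain V gene as each other, a different gene in each library. A cell was assigned to a V gene with at least 2 UMIs that made up over 50% of its V UMIs of that chain, which a 3′ kit reaches in few cells. In wild-type library 2, 69 of 75 assigned Fcrl5 Sox5 B cells carried Ighv1-55 (92.0%, 83.4 to 97.0%). With Jchain-rich cells left out it was 37 of 42, and with a single UMI as the minimum 184 of 202. In mutant library 2, 10 of 12 carried Ighv6-3 (83.3%, 51.6 to 97.9%), and 25 of 41 with a single UMI as the minimum, against 2 of 6 other B cells at 2 UMIs. In wild-type library 1, 5 cells were assigned to 5 different V genes, and in mutant library 1 none of 21 was assigned. Among other B cells of mutant library 1, Ighv1-53 was carried by 6 of 10. The other B cells of wild-type library 2 carried Ighv1-55 in 50 of 63 assigned cells, and in 7 of 13 without the Jchain-rich cells. Of the relatives printed above few UMIs were counted. The 828 cells of wild-type library 2 held 861 UMIs of Ighv1-55 and 0 of Ighv1-53, and the 129 of mutant library 2 held 69 of Ighv6-3 and 2 of Ighv6-6.

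Light chains were more mixed. In wild-type library 2, Igkv4-63 (ENSMUSG00000076550, chr6:69377944-69378472) was found in 35 and Iglv1 (ENSMUSG00000076934, chr16:19085017-19085500) in 30 of 82 assigned Fcrl5 Sox5 B cells. Without Jchain-rich cells the order turned, with Iglv1 in 18 and Igkv4-63 in 16 of 50. Of 40 cells with both chains assigned, 23 paired Ighv1-55 with Igkv4-63 and 13 paired it with Iglv1. In mutant library 2, 19 cells were spread over 12 light chain V genes, with Igkv6-29 in 3, and in wild-type library 1, 9 cells were spread over 6. With a single UMI as the minimum, Igkv8-30 led in mutant library 2 with 11 of 58 cells. Among T cells, no light chain V gene was assigned at 2 UMIs in any library and a heavy one in 1 of 2887 cells of mutant library 2. At 1 UMI, 4.15% of T cells in wild-type library 2 were assigned a light chain, against 37.9% of its Fcrl5 Sox5 B cells. Igkv4-63 was in 16 of these 32 T cells, and Ighv1-55 in 3 of 9 T cells assigned a heavy chain. The free RNA of this library thus held the same leading V genes. These gene counts hold no junctions, so a shared V gene and a shared rearrangement cannot be told apart.

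**Figure D3:**
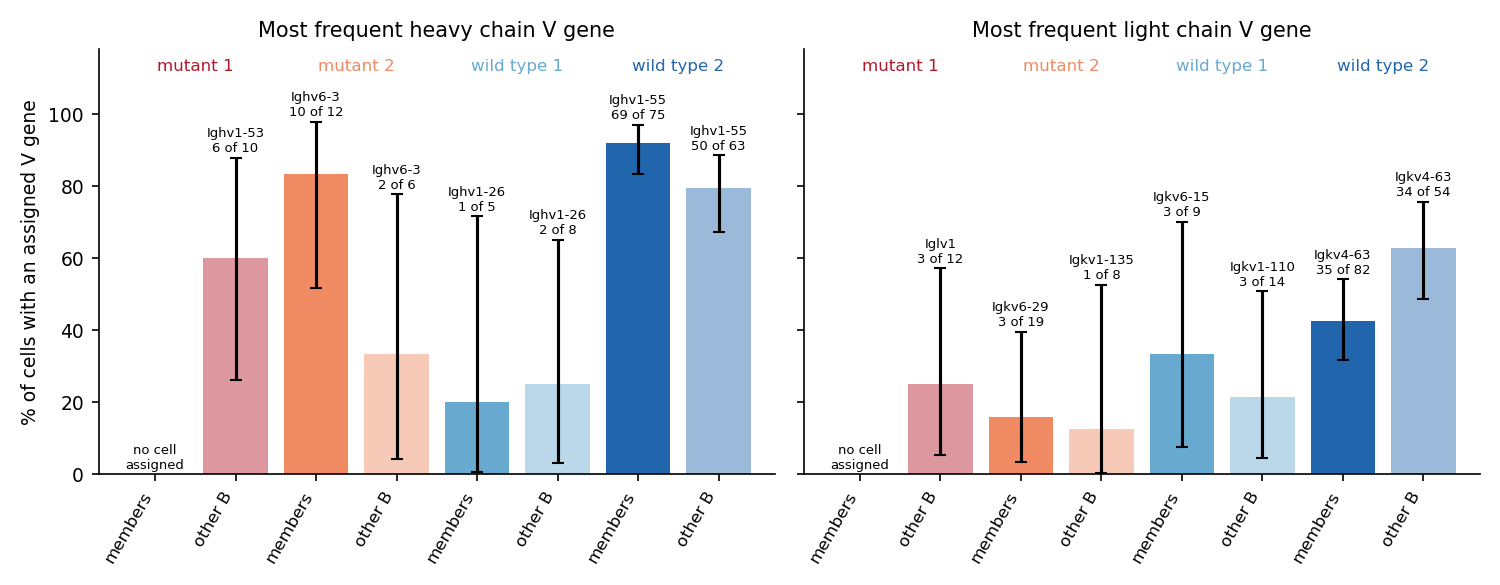
Share of assigned cells (%, with exact 95% intervals) that carried the most frequent heavy (left) and light (right) chain V gene, in Fcrl5 Sox5 B cells (full colour, "members") and other B cells (pale) of each library, with the gene and cell numbers above each bar. Ighv1-55 stands at 69 of 75 in Fcrl5 Sox5 B cells of wild-type library 2 and Ighv6-3 at 10 of 12 in mutant library 2, while no cell was assigned in mutant library 1.

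The mutation's effect within the cells was tested with 2 mutant against 2 wild-type sums, from 21, 129, 47 and 828 cells. No gene of 8508 passed in edgeR (0%), 183 had an unadjusted p under 0.05 (2.15%), and DESeq2 called 1. Leaving out mutant library 1 gave 4 calls, mutant library 2 9, wild-type library 1 58 and wild-type library 2 11. The genes below are given as values, none of them past the threshold, with adjusted p = 1.0 by edgeR for each. Fold changes are mutant over wild type.

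Class II genes, which present antigen to helper T cells, had mutant values above wild-type values. Of 15 genes of class II presentation, 11 did so without overlap between the groups, as did 15.4% of all genes tested, and none did so in the other direction. H2-DMa, which loads peptides, was at 592 and 533 CPM in mutant libraries 1 and 2, against 225 and 262 CPM in wild-type libraries 1 and 2 (log2 fold change 1.19, SE 0.36). H2-Oa, which restrains loading, was at 286 and 397 CPM, against 171 and 132 CPM (log2 fold change 1.18, SE 0.39). The chains H2-Ab1, at 4564 and 4793 against 1542 and 2508 CPM, and H2-Aa, at 6387 and 5984 against 3434 and 3078 CPM, differed in the same way. The median log2 fold change of the 15 was 0.76, against -0.05 over all genes, and 11 or 12 of the 15 were positive in every alternative run, library totals included. Macrophages also carry these genes, and the macrophage markers summed to 1714 and 189 plain CPM in the mutants, against 77.9 and 265 in the wild types. The 8 plasma cell markers summed to 150 and 1543 plain CPM in the mutants, against 8964 and 2160 in the wild types. Apart from the runs without Jchain-rich cells, the part of macrophage and plasma cell RNA in the class II values was not tested. In other B cells H2-DMa was at 496 and 484 CPM in the mutants, against 274 and 132 CPM in the wild types. The plasma cell markers summed there to 18069 and 230 plain CPM in the mutants, against 7245 and 17138 in the wild types. In the interaction test described below, all 15 genes had a negative log2 fold change, with a median of -0.41 against -0.003 over all genes. Their mutant over wild-type fold changes were thus estimated higher in other B cells than in Fcrl5 Sox5 B cells, with no gene past the threshold.

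Genes of antibody-secreting cells, of the cell cycle and of the immediate early list mostly had lower mutant values. Without overlap between groups this was so for 9 of 14, 8 of 16 and 10 of 19 tested genes, against 18.0% of all genes. Prdm1, the master factor of antibody secretion, was at 0 and 2.77 CPM in the mutants, against 41.0 and 28.1 CPM in the wild types. These values rest on 0 and 4 UMIs, against 24 and 386. Top2a, a proliferation gene, was at 0 and 12.5 CPM, against 35.9 and 54.3 CPM. A UMI of Top2a was found in 0 of 21 and 12 of 129 mutant cells, against 2 of 47 and 159 of 828 wild-type cells. By share of cells, mutant library 2 (9.30%) thus lay above wild-type library 1 (4.26%). Nr4a3, induced by antigen receptor signals, was at 0 and 4.15 CPM, against 34.1 and 49.3 CPM, and Fos at 75.3 and 37.4 CPM, against 215 and 164 CPM. The Nr4a3 values of the mutants rest on few UMIs or none. With Jchain-rich cells left out, 11 antibody-secreting genes were tested, 4 with positive and 7 with negative fold changes. With Fcrl5 and Sox5 at 3 or more in sum the median log2 fold change of the antibody-secreting list was 0.09, against -0.94 with the gate used here.

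The switched class with the widest spread was IgG3. Ighg3 was at 55.2 and 108 CPM in the mutants, against 2759 and 259 CPM in the wild types (log2 fold change -4.14, SE 1.05), and 5 of 47 cells of wild-type library 1 were led by it. With both Fcrl5 and Sox5 required in each cell, its log2 fold change was 0.25, so the direction turned with the gate. Without Jchain-rich cells Ighg3 in wild-type library 1 was at 667 plain CPM, against 2799 with them, and the log2 fold change was -2.30. Leaving out wild-type library 1 gave -1.64, and without wild-type library 2 the edgeR adjusted p was 0.00013, against 0.9998 with all 4 libraries.

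The share of mitochondrial RNA did not separate the genotypes. The median cell had 1.55% and 3.48% mitochondrial UMIs in mutant libraries 1 and 2, against 2.17% and 3.67% in wild-type libraries 1 and 2. The groups overlapped, with means of 2.51 ± 1.36% and 2.92 ± 1.07% (SD, n = 2 each, exact permutation p = 0.667, two-sided). Without mutant library 1 the difference was 0.557 percentage points, and without wild-type library 2 it was 0.346, both in the opposite direction. In other B cells the medians were 1.78% and 3.12% in mutants and 2.27% and 2.47% in wild types. Of the 13 mitochondrial mRNAs, 6 had positive and 7 negative log2 fold changes, and mt-Nd3, a subunit of complex I, had the lowest p. It was at 151 and 201 CPM in the mutants, against 234 and 750 CPM in the wild types (log2 fold change -1.48, SE 0.57, unadjusted p = 0.034 by edgeR). The value of wild-type library 2 lay far above the other 3.

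**Figure D4:**
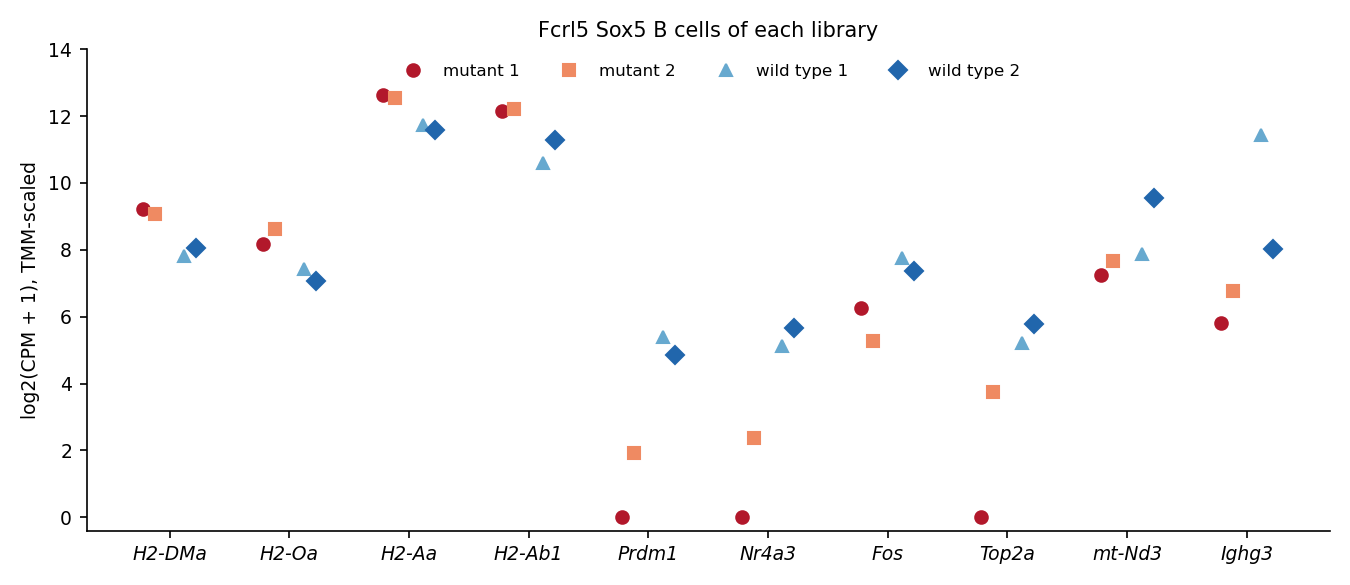
Expression of 10 genes in Fcrl5 Sox5 B cells, as log2(CPM + 1) scaled by TMM, with 1 point per library (mutants left, wild types right of each gene). The class II genes H2-DMa, H2-Oa, H2-Aa and H2-Ab1 lie higher in both mutants, Prdm1, Nr4a3, Fos and Top2a lie lower, and none passed the test across 8508 genes.

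Whether the contrast between Fcrl5 Sox5 B cells and other B cells depended on genotype was tested by an interaction term, blocking on library. No gene of 9075 passed in edgeR (0%), 278 had an unadjusted p under 0.05 (3.06%), and DESeq2 called 3. Leaving out wild-type library 1 gave 71 calls, wild-type library 2 28 and either mutant library none.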

How the data were processed

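Single-cell RNA was sequenced from kidneys of 2 mutant and 2 wild-type mice with a 3′ kit. The deposited values are raw UMI counts per gene and barcode, made with Cell Ranger 7.0.0 (mutants) and 7.1.0 (wild types), per the file headers, on mm10, per the submitters' processing notes. The files hold 32285 genes, and total counts per library ran from 42121175 to 70013861 UMIs. Kept cells had at least 500 UMIs and 200 genes and at most 50% mitochondrial UMIs. Doublets were called with Scrublet (scanpy 1.11.5) and removed only in an alternative.

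Counts were summed per library and class and tested with edgeR 4.0.16 (quasi-likelihood test, TMM, filterByExpr, Benjamini-Hochberg adjusted over all genes tested), with the library as a block between classes. DESeq2 1.42.0 was an alternative, and the scripts were tested on simulated data. Shares were compared by exact permutation (scipy 1.17.1) and carry exact 95% intervals. Whether replicate numbers pair mutants with wild types could not be told. The correlation of deviations from the group means was -0.23 for libraries of the same number and 0.23 for crossed numbers. With 2 libraries per group these values mirror each other by construction. The 11 gate genes were left out of every test. The cells and gene lists were chosen with earlier results of these data known. Named genes were the 12 largest rises and the 12 largest falls past the threshold with the same direction in 4 libraries and a mean of at least 30 CPM, plus up to 5 genes of lowest p per list. Itgam, Zeb2, Foxp1, Bach2, Vim, Cd5 and the subsets by gate gene were added after their values were seen. V sequences come from GENCODE M21. Some genes that met the naming rule are not reported here.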

Additional observations from a re-analysis of the deposited data

How the results depend on the processing

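Every setting below kept the direction of all called genes it tested between Fcrl5 Sox5 B cells and other B cells, whose main count was 94. That count was 528 without a filter on low counts, 204 with DESeq2, 161 with both Fcrl5 and Sox5 required, 292 without cells of 10 or more Jchain UMIs and 202 when wild-type library 2 was left out as well, and it ran from 0 to 130 with 1 library left out. With no replicate block it was 19. Between mutants and wild types, the main count of 0 became 38 without a filter, 1 with DESeq2, 1 with both genes required, 80 without Jchain-rich cells and wild-type library 2, and 4 to 58 with 1 library left out. With a replicate block it was 0, and with the numbers crossed 21. The interaction gave 52 without a filter, 3 with DESeq2 and 0 to 71 with 1 library left out. The difference in the share of kept cells ran from -12.1 to 0.00364 percentage points, that of gated B cells from -56.0 to 5.53 and that of mitochondrial UMIs from -1.37 to 0.557 with 1 library left out. Ighg3 had a log2 fold change of 0.25 with both genes required. The most frequent V gene was held by 83.3% of assigned cells in mutant library 2 and 92.0% in wild-type library 2 for the heavy chain, against 15.8% and 42.7% for the light chain. The cause was not tested for any of these. Fcrl5-only and Sox5-only cells were not compared by a test because mutant library 1 had 4 Sox5-only cells. The alternatives without Jchain-rich cells were chosen after seeing the data. With 21 cells in mutant library 1, genes of few UMIs are limited by depth.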

Other observations

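Some receptors and structural genes moved with the classes in ways not given above. Lilrb4a, an inhibitory receptor, was at 45.2, 31.9, 18.8 and 66.7 CPM in Fcrl5 Sox5 B cells of mutant 1, mutant 2, wild type 1 and wild type 2, against 6.64, 7.87, 2.97 and 3.47 CPM in other B cells, without overlap. Ccr1, a receptor of inflammatory chemokines, was at 60.3, 27.7, 66.6 and 17.4 CPM, against 9.96, 11.8, 3.96 and 0.693 CPM. Anxa2, a membrane-binding annexin, was at 186, 215, 131 and 45.2 CPM, against 39.9, 71.8, 21.8 and 11.8 CPM. It was lowest in wild-type library 2 in both classes. Vim, the intermediate filament vimentin, was at 648, 779, 1000 and 255 CPM, against 455, 450, 332 and 75.6 CPM, and it missed the threshold (log2 fold change 1.17, adjusted p = 0.0829 by edgeR). Cd22, an inhibitory co-receptor, missed it too (log2 fold change 1.34, adjusted p = 0.0964 by edgeR), although it was higher in all 4 libraries. These genes were not examined for a cause.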
